A study of Homo sapiens with 12 samples.

Results

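The 10 Notch pathway genes followed here through both experiments of the series are the ligand genes DLL1, DLL4, JAG1 and JAG2, the receptor genes NOTCH1, NOTCH2 and NOTCH3, and the target genes HES1, HEY1 and NRARP. They were matched by symbol to Ensembl identifiers, and all 10 were found in both count tables, among 61860 and 62700 identifiers. They were selected on their measured changes in both comparisons, so these changes are described here and not tested. In cells given an ITGB4 plasmid the 3 targets were far lower than in vector cells, by a factor of 6.21 for HES1, 13.2 for HEY1 and 32.4 for NRARP, while NOTCH3 was 1.99-fold and DLL4 3.34-fold higher. In cisplatin-resistant cells DLL4 was lower than in parental cells by a factor of 11.4 and NOTCH3 by 2.20, NOTCH1 was 2.18-fold and JAG2 3.19-fold higher, and the targets moved apart, with HEY1 5.25-fold higher, NRARP lower by a factor of 2.39 and HES1 at about the same level.

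The libraries were made from RT4, an established human bladder cancer line. In the overexpression experiment, 3 vector libraries (Flag_EV, an empty vector) were set against 3 plasmid libraries (Flag_ITGB4, a Flag-tagged beta 4 integrin subunit), all from transfected cells grown in a McCoy-type 5A medium. The group labels of libraries 2 and 3 in both groups name ITGB5 and ITGB6, although all titles name ITGB4. In the resistance experiment, 3 parental RT4 libraries treated with PBS were set against 3 libraries of a cisplatin-resistant RT4 line given cisplatin, a platinum compound that forms DNA crosslinks, all from cells labelled wild type and grown in MEM. No dose, time, promoter of the plasmid or number of clones was given, so in that experiment an acute effect of the drug and the stable state of the line cannot be told apart. The columns taken as parental are headed NC1 to NC3, a prefix that only titles of vector libraries hold. Their group is an inference from the table they share with the resistant columns, their numbers tie to no sample, and they are called libraries a, b and c.

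Sequencing depth was 22701466 to 33352045 counts a library for overexpression and 31824582 to 38199946 for resistance. ITGB4 itself was 1.64-fold higher in plasmid cells and 1.40-fold higher in resistant cells. The urothelial label was borne out in part by its markers: 12 of 14 stood above 1 CPM in every library of each experiment, while KRT20 had no counts and UPK1A stayed under 1 CPM. CPM is the count relative to library size (the usual depth-scaled unit), adjusted between libraries by the TMM method. Markers of other cell types were few. The summed level of 8 endothelial markers was 2.34 to 2.96 CPM in the first experiment and 1.29 to 3.24 CPM in the second, that of 8 fibroblast and pericyte markers at most 52.7 CPM, mostly COL3A1 in the first experiment and COL1A1 in the second, and that of 7 leukocyte markers at most 23.9 CPM and mostly ITGAM. The fibroblast sum was lower in plasmid cells, at 24.9 to 26.4 CPM against 48.6 to 52.7 CPM, and in resistant cells, at 5.31 to 5.99 CPM against 11.9 to 12.2 CPM. Its genes did not move as one: COL1A1 rose in plasmid cells from 4.05 ± 0.264 to 6.89 ± 0.114 CPM (adjusted p = 1.23e-06), and COL3A1 rose in resistant cells from 0.0558 ± 0.0557 to 0.387 ± 0.112 CPM (adjusted p = 0.00546). The part of these markers in the results was not tested.

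Notch signalling passes between neighbouring cells. A ligand of the Delta or Jagged family on one cell binds a Notch receptor on the next, the receptor is cut by an ADAM protease and then by gamma-secretase, and its intracellular part enters the nucleus, where it joins the DNA-binding protein RBPJ and a Mastermind coactivator to switch on targets such as HES1, HEY1 and NRARP. In squamous and urothelial epithelia the pathway is known for its links to differentiation, and in bladder cancer its receptors have been described as tumour suppressors as well as promoters of growth, depending on the receptor.

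Of the 9 genes with enough counts to enter the fit over all genes, 8 were past an adjusted p of 0.05 in the overexpression experiment, 3 higher and 5 lower, where 72.2% of all 16950 genes tested were (36.5% higher and 35.7% lower). In the resistance experiment 8 of 9 were past it as well, 3 higher and 5 lower, where 54.5% of 16875 genes were (26.8% higher and 27.7% lower). Changes over 2-fold were seen in 4 of the 9 genes in the first experiment, where 16.2% of genes tested had one, and in 6 of 9 in the second, where 11.5% had one. The libraries of the 2 groups did not overlap for 9 of the 9 genes in the first experiment, against 74.5% of genes tested. In the second this held for 8 of 9, against 60.8%. The median log2 fold change of the 9 genes was -0.35 and -0.55, against medians over all genes tested of 0.0017 and 0.02. These counts stem from the contrasts in which the genes were chosen, and nothing is read from them. DLL1 could not be tested: it had 1 count in vector library 3, 1 count in plasmid library 3 and none in the other 10 libraries, and 0 counts in a library of the resistance experiment allow at most 0.0785 to 0.0943 CPM (3 counts of the total, counting error only).

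**Figure D1:**
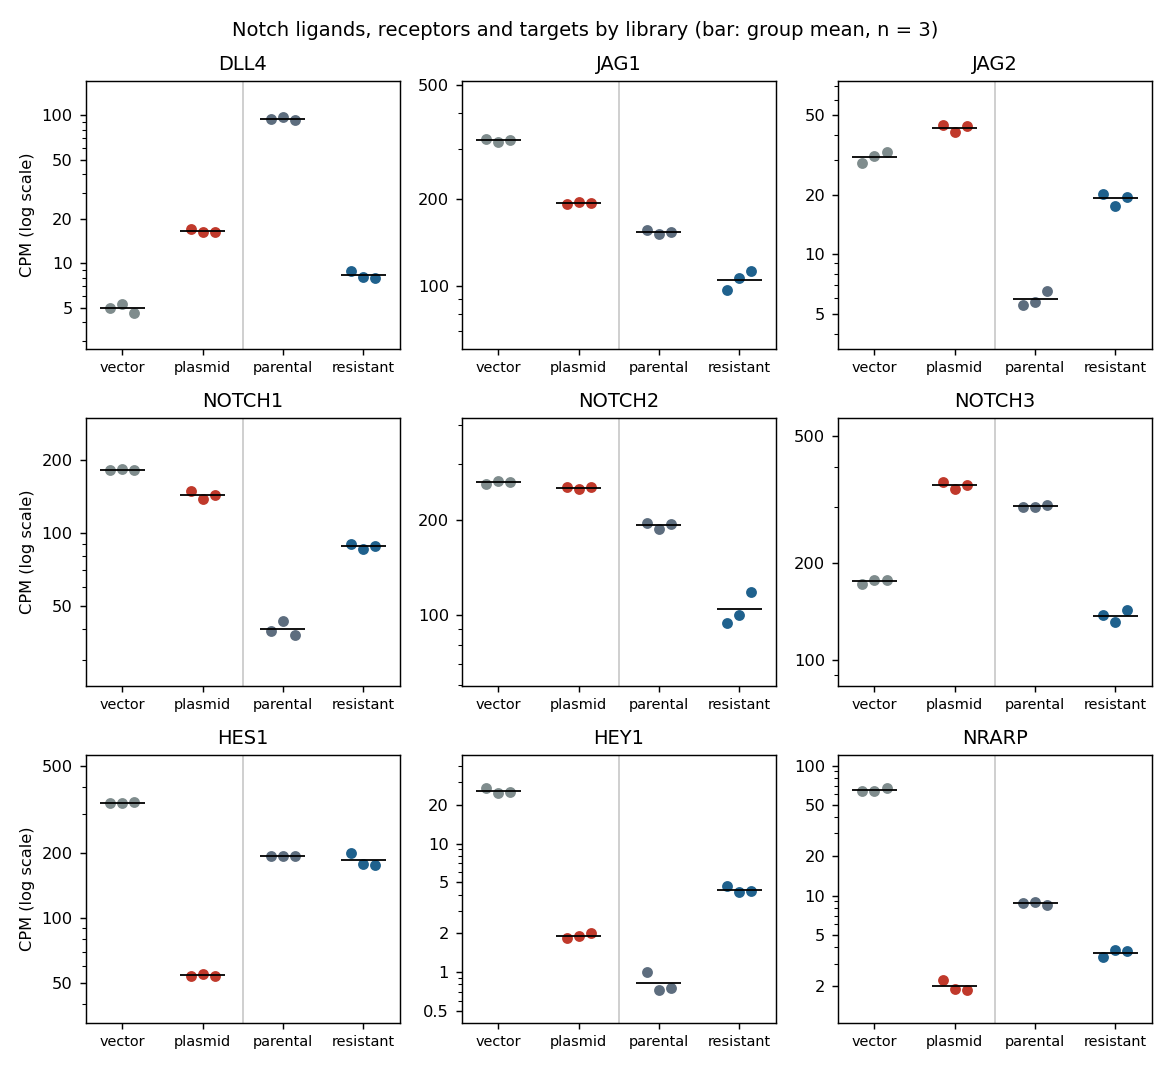
Level of 9 Notch pathway genes in CPM (log axis) in each library (points) with the mean of each group of 3 (bars); the grey line parts the 2 experiments, whose tables were scaled separately. The 3 targets lie far lower in plasmid than in vector cells, with NRARP at 1.88 to 2.24 against 63.3 to 66.8 CPM, and DLL4 lies between 92.8 and 97.5 CPM in parental cells, above every other group.

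The ligands came first. DLL4, a Delta-type ligand best known from sprouting blood vessels, stood at 4.98, 5.36 and 4.65 CPM in vector libraries 1, 2 and 3 and at 17.2, 16.4 and 16.4 CPM in the plasmid libraries. All plasmid libraries lay above all vector libraries, and the log2 fold change was 1.74 ± 0.076, where the error after ± is the absolute change over the root of F in edgeR's test. In parental libraries a, b and c DLL4 stood at 93.9, 97.5 and 92.8 CPM, and in resistant libraries 1, 2 and 3 at 8.85, 8.15 and 8.03 CPM (log2 -3.51 ± 0.066). DLL4 was thus higher in one comparison and lower in the other, and its starting levels were far apart. Of the 8 endothelial markers, 6 were under 1 CPM in every library of the overexpression experiment and 7 in every library of the resistance experiment, with KDR at 0 counts in both. VWF fell in plasmid cells from 2.06 ± 0.108 to 1.38 ± 0.036 CPM (adjusted p = 0.0028), while ERG rose as DLL4 was higher, from 0.401 ± 0.128 to 0.797 ± 0.359 CPM (adjusted p = 0.0236). In resistant cells neither was called (adjusted p = 0.885 and 0.26). RT4 is an established cancer line, and whether any endothelial cells were present or had a part in the level of DLL4 was not tested. In RNA from whole cultures, fewer cells that express a gene and less RNA per cell cannot be told apart.

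JAG1, a Jagged-type ligand and itself a gene that Notch can induce, stood at 324, 317 and 322 CPM in the vector libraries and at 193, 196.0 and 194 CPM in the plasmid libraries (log2 -0.72 ± 0.025). In the resistance experiment it stood at 156, 151 and 154 CPM in parental libraries a, b and c and at 96.6, 106 and 113 CPM in the resistant libraries (log2 -0.55 ± 0.053). The groups did not overlap in either experiment, and JAG1 was lower in both. JAG2, the other Jagged ligand, was higher in both: its level was 28.9, 31.4 and 32.6 CPM in vector cells and 44.7, 41.2 and 44.4 CPM in plasmid cells (log2 0.48 ± 0.049). In parental libraries it was 5.59, 5.79 and 6.56 CPM and in resistant libraries 20.2, 17.5 and 19.5 CPM (log2 1.67 ± 0.10).

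Per kilobase of exon, JAG1 was the leading ligand in 3 of the 4 groups. It made up 85.4% ± 0.694 of the summed ligand level in vector cells and 67.0% ± 0.990 in plasmid cells (SD, n = 3), while DLL4 made up 2.60% ± 0.202 and 11.2% ± 0.271. In parental cells DLL4 led with 53.2% ± 1.06 over JAG1 with 44.3% ± 0.972. In resistant cells JAG1 led with 70.4% ± 2.61, and JAG2, at 18.6% ± 1.70, stood above DLL4, at 10.9% ± 1.04. The summed ligand level was 40.4 ± 0.264 in vector and 31.2 ± 0.213 in plasmid cells, and 37.4 ± 0.252 in parental and 16.1 ± 0.733 in resistant cells, as CPM per kilobase. No library of the lower group reached the other group in either experiment.

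**Figure D2:**
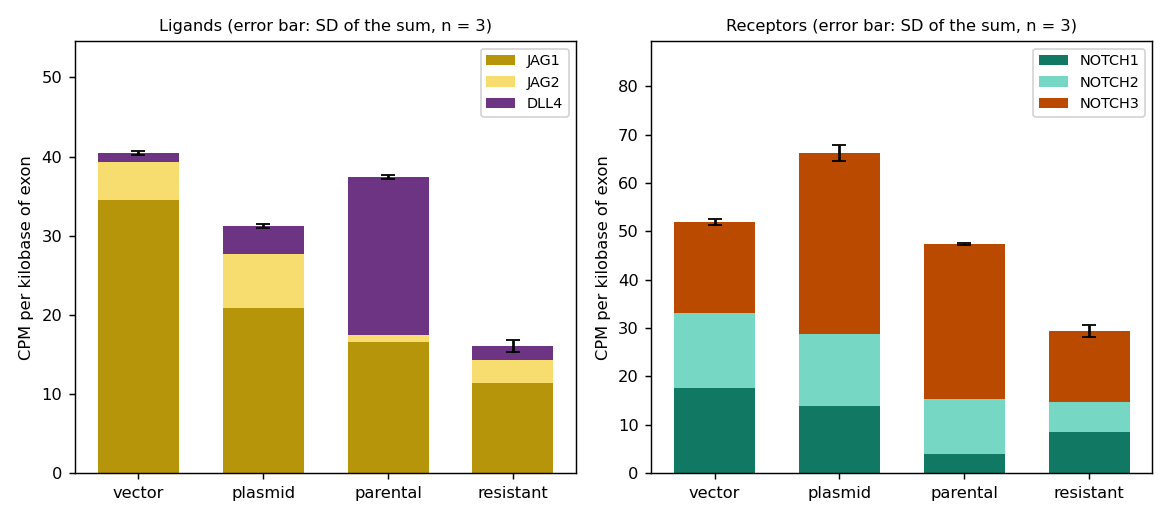
Mean level of the ligands (left) and receptors (right) as CPM per kilobase of exon, stacked by gene for each group of 3 libraries, with the SD of the sum as error bar; the 2 experiments were scaled separately. DLL4 is a large part of the ligand sum in parental cells alone, and NOTCH3 is the largest part of the receptor sum in every group.

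The receptors were all abundant and shifted against each other. NOTCH1, the receptor with the best known role in epidermal and T-cell differentiation, stood at 181, 183 and 182 CPM in the vector libraries and at 149, 137 and 144 CPM in the plasmid libraries (log2 -0.35 ± 0.030). In parental libraries a, b and c it stood at 39.3, 43.5 and 38.0 CPM, and in the resistant libraries at 89.6, 86.1 and 87.9 CPM (log2 1.13 ± 0.058). NOTCH1 was lower in every plasmid library than in any vector library and higher in every resistant library than in any parental one.

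NOTCH3, a receptor whose gene is also a Notch target, showed the reverse pair of directions. It stood at 172, 177 and 178 CPM in the vector libraries and at 359.8, 340.4 and 351 CPM in the plasmid libraries (log2 0.99 ± 0.028). In parental libraries it stood at 300.4, 300.1 and 305 CPM and in resistant libraries at 138, 131 and 143 CPM (log2 -1.14 ± 0.042). The groups of both experiments were apart by more than the spread within them.

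NOTCH2 changed least in the overexpression experiment, at 259, 266 and 264 CPM in vector and 254, 250.1 and 254 CPM in plasmid libraries (log2 -0.06 ± 0.025). It was the tested gene of the 10 that missed the threshold there, although its groups did not overlap, which 74.5% of all genes tested shared. It was called in 5 of 13 alternatives. These were size factors of the DESeq2 kind, library sizes alone, the filter of at least 1 CPM in 3 libraries, and the fits without plasmid replicate 1 or without vector replicate 1. In the resistance experiment it stood at 196.0, 187 and 194 CPM in parental libraries a, b and c and at 94.2, 100.2 and 118 CPM in resistant libraries 1, 2 and 3 (log2 -0.89 ± 0.063), with resistant library 3 apart from the others. Values of NOTCH2 are uncertain because its partial copies share sequence with it: NOTCH2NLA, NOTCH2NLB, NOTCH2NLC and NOTCH2NLR together hold far fewer counts (458, 357, 582 and 98 in the overexpression table, against 43186 for NOTCH2), but reads could be split between them.

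Per kilobase of exon, the 3 receptors were close to even in vector cells, where NOTCH1 made up 33.8% ± 0.236, NOTCH2 30.1% ± 0.091 and NOTCH3 36.1% ± 0.224 of their summed level. In plasmid cells NOTCH3 made up 56.4% ± 0.130 and NOTCH1 20.9% ± 0.298. In parental cells NOTCH3 made up 67.7% ± 0.358 and NOTCH1 8.18% ± 0.613, against 49.95% ± 0.787 and 28.9% ± 1.16 in resistant cells. The receptor sum was higher in plasmid than in vector cells, at 66.2 ± 1.69 against 51.9 ± 0.615, and lower in resistant than in parental cells, at 29.3 ± 1.27 against 47.5 ± 0.213 CPM per kilobase. In plasmid cells the receptor sum was thus higher while the ligand sum was lower, and in resistant cells both were lower.

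The 3 targets had the largest changes of the 9 genes in the overexpression experiment. HES1, a transcriptional repressor of the basic helix-loop-helix type, stood at 338, 337 and 341 CPM in the vector libraries and at 54.2, 55.1 and 54.3 CPM in the plasmid libraries (log2 -2.63 ± 0.028). In the resistance experiment it stood at 193.2, 193.5 and 193.0 CPM in parental libraries a, b and c and at 199, 177 and 175 CPM in the resistant libraries. Those groups overlapped, with resistant library 1 above and libraries 2 and 3 below all parental ones. The log2 fold change of HES1 there was -0.07 ± 0.049, and 0.09 when libraries were scaled by their size alone. HES1 was called there in 1 of 12 alternatives, without resistant replicate 1, at -0.13.

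HEY1, a related repressor of the Hairy/E(spl) family, stood at 27.0, 24.6 and 25.0 CPM in the vector libraries and at 1.84, 1.89 and 2.01 CPM in the plasmid libraries (log2 -3.73 ± 0.086). It was low in the other experiment, at 1.00, 0.723 and 0.757 CPM in parental libraries a, b and c, on 87 counts in all, and at 4.63, 4.20 and 4.27 CPM in the resistant libraries, on 480 counts (log2 2.39 ± 0.22). HEY1 was the target that was higher in resistant cells.

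NRARP, a short ankyrin repeat protein that Notch induces and that damps Notch signalling in turn, stood at 63.3, 63.4 and 66.8 CPM in the vector libraries and at 2.24, 1.89 and 1.88 CPM in the plasmid libraries (log2 -5.02 ± 0.069). Of all genes tested, 15 called ones were lower by more than NRARP in that comparison, 44 by more than HEY1 and 153 by more than HES1. NRARP was lower in the resistance experiment too, at 8.77, 8.86 and 8.47 CPM in parental libraries a, b and c and 3.38, 3.81 and 3.73 CPM in the resistant libraries (log2 -1.25 ± 0.13). The groups were apart in both experiments, though by much more in the first.

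**Figure D3:**
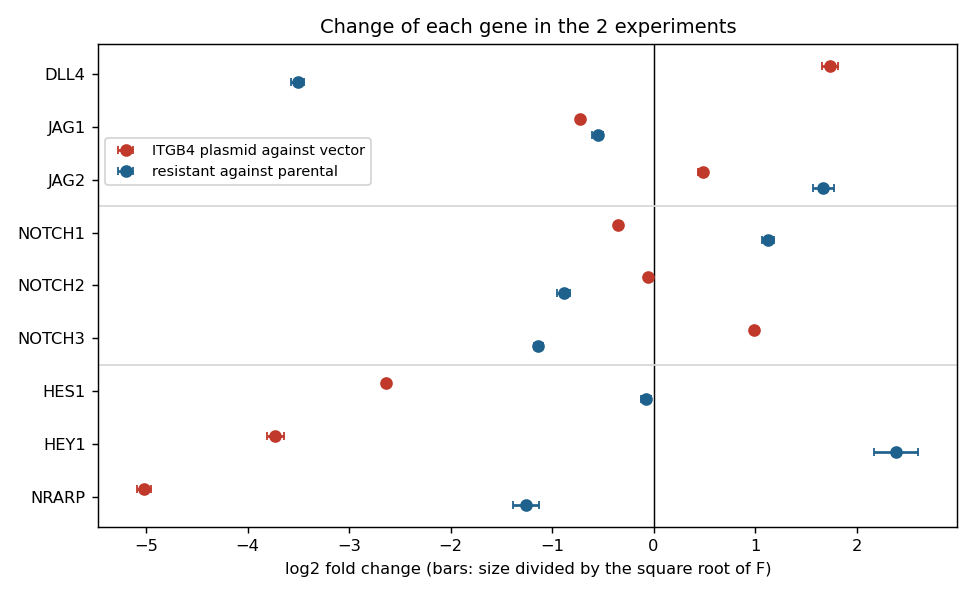
Log2 fold change of each gene in plasmid against vector cells (red) and in resistant against parental cells (blue), with error bars as in the text. The 3 targets lie between -2.63 and -5.02 in plasmid cells, while in resistant cells HEY1 lies at 2.39, HES1 at -0.07 and NRARP at -1.25.

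HES1 and NRARP are both direct Notch targets in textbooks, and their upstream sequences are shown because the 2 genes were lowered together in plasmid cells and differed in resistant cells. The 250 bases before the RefSeq start (GRCh38.p14, 5′ to 3′ on the strand of the gene) were searched on both strands for TGGGAA, the core of the RBPJ site, shown in capitals. HES1 lies on the plus strand, with this window at chr3:194135898-194136147, and NRARP on the minus strand, with its window at chr9:137302272-137302521.
HES1: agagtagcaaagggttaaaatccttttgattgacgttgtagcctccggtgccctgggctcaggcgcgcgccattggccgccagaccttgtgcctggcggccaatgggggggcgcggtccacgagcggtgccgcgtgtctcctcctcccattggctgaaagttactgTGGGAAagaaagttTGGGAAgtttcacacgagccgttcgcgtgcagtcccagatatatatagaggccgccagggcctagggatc
NRARP: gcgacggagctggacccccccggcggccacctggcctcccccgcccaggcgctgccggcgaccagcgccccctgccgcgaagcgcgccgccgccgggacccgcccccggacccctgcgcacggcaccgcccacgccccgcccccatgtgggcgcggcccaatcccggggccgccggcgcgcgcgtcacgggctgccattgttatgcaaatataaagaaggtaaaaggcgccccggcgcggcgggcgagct
The HES1 window held TGGGAA at positions -84 to -79 and -70 to -65 from the start, both on the strand of the gene, and the first of them also as GTGGGAA. The NRARP window held neither. Of 35116 RefSeq promoter windows of this length, 20.8% held TGGGAA and 5.43% held GTGGGAA, which contains it. The N box CACNAG, to which HES proteins bind, was found 3 times in the HES1 window and once in that of NOTCH3, against 32.0% of all windows with at least 1. Of the 10 genes 8 were in the promoter table, and the windows of DLL4, JAG1, JAG2, NOTCH1 and NOTCH2 held none of these motifs. A match describes letters and shows no binding.

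The genes lie apart in the genome (GRCh38, GENCODE 29, all protein-coding). DLL4 is on chromosome 15 from 40929333 to 40939073, JAG1 on chromosome 20 from 10637684 to 10673999 and JAG2 on chromosome 14 from 105140981 to 105168824. NOTCH1 lies on chromosome 9 from 136494433 to 136545786, on the same chromosome as NRARP, from 137300482 to 137302251. NOTCH2 lies on chromosome 1 from 119911553 to 120069626, NOTCH3 on chromosome 19 from 15159038 to 15200981, HES1 on chromosome 3 from 194136145 to 194138732, HEY1 on chromosome 8 from 79764010 to 79767863 and DLL1 on chromosome 6 from 170282206 to 170306565. An antisense gene overlaps JAG1 by 79 exon bases, AL050403.2, with 2 and 1 counts in the 2 tables, and AL592301.1 is antisense to NOTCH1 with no shared exon base. AL512356.1 shares 469 exon bases with JAG2 on the same strand and had 0 counts in both tables. FAM120B, on the strand opposite to DLL1, shares no exon base with it and had 178 and 189 counts. The header of the overexpression table names no strand option, so antisense reads over exon bases that belong to 1 gene alone would be counted with that gene. How reads over exon bases shared by 2 genes were counted was not examined. The low counts of AL050403.2 and AL512356.1 therefore do not show that these genes are silent.

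Levels in the 4 groups are set side by side here although the 2 tables were scaled separately and the cells were grown in different media, so no test was made across them. From low to high, DLL4 ran from vector through resistant and plasmid to parental cells, and JAG1 and NOTCH2 from resistant through parental and plasmid to vector cells. JAG2 ran from parental through resistant and vector to plasmid cells, NOTCH1 from parental through resistant and plasmid to vector cells, and NOTCH3 from resistant through vector and parental to plasmid cells. HES1 and NRARP were lowest in plasmid cells, then resistant, parental and vector cells, and HEY1 was lowest in parental, then plasmid, resistant and vector cells. Neighbours in these orders did not overlap in any of the 9 genes except the resistant and parental groups of HES1. Within the overexpression and resistance experiments, 74.5% and 60.8% of all genes tested did not overlap between groups. No such share was computed for groups of different experiments, so nothing is read from their separation. All 3 targets had their highest mean in vector cells on these separately scaled levels, a ranking across experiments that was not tested.

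Genes with the most similar pattern were sought for the 7 genes of the 10 that changed at least 2-fold in either experiment, as the smallest root mean square difference in log2 CPM over the 12 libraries, each centred on its own controls, among 15646 named genes. For HES1 these were THBS1 (0.088), which encodes the matrix protein thrombospondin 1, and ST3GAL1-DT (0.14). For HEY1 they were KCNH5 (0.16), a potassium channel gene, and MAP1B (0.26), which encodes a microtubule-associated protein. NRARP had no close match, with C11orf96 (0.57) and PRKAR2B (0.62) the nearest. For DLL4 they were S100A8 (0.23), a calcium-binding protein gene of inflamed epithelia, and MRGPRX3 (0.27). NOTCH3 was matched by FAM83A (0.062) and TMEM62 (0.063), NOTCH1 by BCKDHB (0.070) and COL6A1 (0.077), and JAG2 by PLXNB3 (0.16) and DDB2 (0.16).

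The other genes of the pathway were taken from 6 lists of 73 genes in all, none of them among the 10. They were tested with edgeR's quasi-likelihood test and Benjamini-Hochberg adjustment over all genes. The lists were drawn up with earlier results of these data known, so their calls are no independent test. In plasmid cells 29 of 61 tested genes rose and 21 fell, where 72.2% of all genes were called. In resistant cells 15 of 62 rose and 30 fell, or 72.6%, where 54.5% of all genes were called. The median log2 fold changes were 0.12 and -0.16, against 0.0017 and 0.02 over all genes. With library sizes alone the resistance counts were 26 higher and 25 lower, since that scaling moves the median of all genes there from 0.02 to 0.18 and the higher share of all calls from 49.1% to 67.8%. The 2 experiments share no library: of the 60 genes tested in both, 20 rose in plasmid cells and fell in resistant cells, 9 did the reverse, 3 rose in both and 5 fell in both. Of all 15655 genes tested in both experiments, these 4 classes held 16.6%, 13.4%, 7.11% and 7.72%. The change itself differed between the experiments for 50 of 63 genes tested, where 61.8% of 18516 genes did (30.2% with the higher log2 fold change in plasmid cells and 31.6% with the lower).

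**Figure D4:**
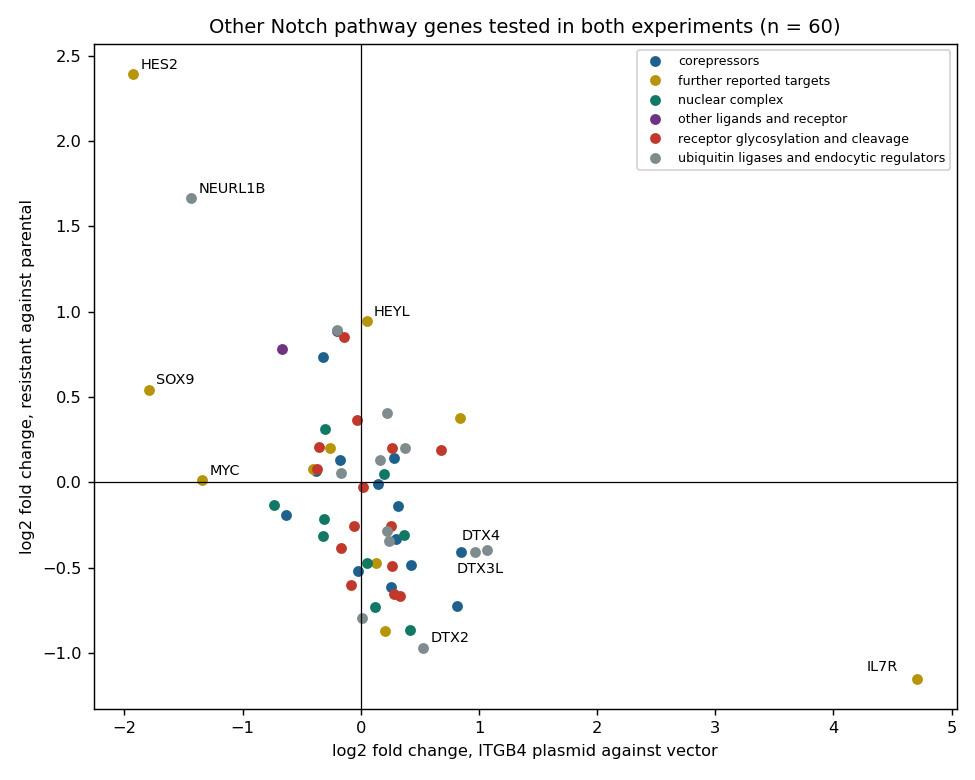
Log2 fold change of 60 other Notch pathway genes in plasmid against vector cells (x axis) and in resistant against parental cells (y axis), coloured by list, with names where either change is over 0.9. IL7R lies far to the lower right, at 4.71 and -1.15, and HES2 to the upper left, at -1.93 and 2.39.

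Among the enzymes that prepare and cut the receptors, 5 of 15 tested rose and 4 fell in plasmid cells, and 2 of 14 rose and 6 fell in resistant cells. The share called was 60% in plasmid cells, under the 72.2% of all genes, and 57.1% in resistant cells, near the 54.5% of all genes. ADAM10, the protease of the first activating cut, rose from 521 ± 10.3 to 657 ± 14.4 CPM in plasmid cells (adjusted p = 2.91e-09) and fell from 514 ± 9.35 to 324 ± 17.1 CPM in resistant cells (SD, n = 3, edgeR adjusted p = 4.42e-10). The change differed between the experiments for ADAM10 (adjusted p = 5.3e-13). FURIN, which cleaves the receptor during its passage to the surface, fell in resistant cells from 102 ± 4.34 to 67.2 ± 4.23 CPM (adjusted p = 5.89e-08).

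Of the nuclear complex, 4 of 9 tested rose and 4 fell in plasmid cells, and 1 rose and 6 fell in resistant cells. Calls made up 88.9% and 77.8% of this list, against 72.2% and 54.5% of all genes. MAML1, a Mastermind coactivator, rose from 115 ± 2.31 to 153 ± 4.55 CPM in plasmid cells (adjusted p = 2e-09) and fell from 185 ± 0.332 to 102 ± 3.98 CPM in resistant cells (adjusted p = 2.77e-11). MAML2, another coactivator, fell by 0.73 ± 0.077 in resistant cells (adjusted p = 3.8e-07), and KAT2B, a histone acetyltransferase, fell by 0.74 ± 0.040 in plasmid cells (adjusted p = 3.86e-11). RBPJ, the DNA-binding subunit, rose by 0.20 ± 0.035 in plasmid cells (adjusted p = 8.3e-05), and in resistant cells its log2 fold change was 0.05 ± 0.064 (adjusted p = 0.547). RBPJ was singled out after its values were seen.

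Of the corepressors that hold Notch targets off, 8 of 13 rose and 4 fell in plasmid cells, and 3 rose and 8 fell in resistant cells. This was 92.3% and 84.6% called, against 72.2% and 54.5% of all genes. CIR1, a corepressor that binds RBPJ, rose from 26.4 ± 0.724 to 47.3 ± 1.37 CPM in plasmid cells (adjusted p = 1.05e-11), while TLE3, a Groucho-type corepressor that works with HES proteins, fell from 151 ± 3.72 to 97.4 ± 2.27 CPM (adjusted p = 9.53e-12). In resistant cells KDM5A, a histone demethylase, fell by 0.61 ± 0.058 (adjusted p = 8.71e-08) and NCOR1 by 0.52 ± 0.057 (adjusted p = 5.54e-07) on the log2 scale.

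Of the ubiquitin ligases and endocytic regulators, 8 of 12 tested rose and 3 fell in plasmid cells, and 3 rose and 6 fell in resistant cells. Here 91.7% and 75% were called, against 72.2% and 54.5% of all genes. DTX4, a Deltex-family ubiquitin ligase, rose from 291 ± 6.65 to 610 ± 6.29 CPM in plasmid cells (adjusted p = 5.76e-16), and its relative DTX3L rose from 281 ± 2.32 to 547 ± 17.2 CPM (adjusted p = 5.34e-15). NUMB, an endocytic inhibitor of Notch receptors, fell from 183 ± 1.05 to 105 ± 4.67 CPM in resistant cells (adjusted p = 1.08e-10), and DTX2 fell from 73.0 ± 1.93 to 37.3 ± 3.32 CPM (adjusted p = 8.04e-10).

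Of further reported Notch targets, 4 of 10 tested rose and 5 fell in plasmid cells, and 5 of 11 rose and 3 fell in resistant cells. Among all genes 72.2% and 54.5% were called, against 90% and 72.7% of this list. IL7R, the interleukin 7 receptor gene that Notch drives in T cells, rose from 4.97 ± 0.382 to 131 ± 2.64 CPM in plasmid cells (adjusted p = 3.44e-20), against the direction of HES1, HEY1 and NRARP. MYC fell from 329 ± 3.82 to 130 ± 2.50 CPM (adjusted p = 6.63e-17). In resistant cells ID1, a helix-loop-helix inhibitor, fell from 671 ± 9.83 to 367 ± 38.8 CPM (adjusted p = 4.89e-10) and CCND1, cyclin D1, from 722 ± 9.23 to 520.1 ± 4.72 CPM (adjusted p = 2.45e-09). The list includes genes with many other regulators.

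Of the other ligands and the receptor NOTCH4, most were silent, with NOTCH4 and DLK1 at 0 counts in all 12 libraries. In plasmid cells 1 of 2 tested fell, and in resistant cells 1 of 3 rose and 1 fell. This was 50% and 66.7% called, against 72.2% and 54.5% of all genes. The gene that fell in resistant cells was DNER, under 1 CPM (log2 -1.62 ± 0.57, edgeR adjusted p = 0.0232). DNER was singled out after its values were seen. DLK2, a noncanonical ligand gene, was the most abundant and rose from 3.38 ± 0.383 to 6.23 ± 0.582 CPM in resistant cells (adjusted p = 9.99e-05), while in plasmid cells its log2 fold change was -0.20 ± 0.12 (adjusted p = 0.158, and 0.0376 without vector replicate 1). DLL3, a ligand that inhibits within the cell, lay under 1 CPM and had a log2 fold change of -0.67 ± 0.26 in plasmid cells (adjusted p = 0.032), a call that was lost in 7 of 12 alternatives, among them those without plasmid replicate 2 or 3 or vector replicate 1 or 2.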

How the data were processed

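The authors deposited 1 table of raw gene counts for each experiment. Per the file headers, the overexpression counts are read pairs over exons, made with featureCounts 2.0.1 and the Ensembl release 107 annotation of GRCh38 with no strand option. For the resistance table the submitters' processing notes give the build hg38, and its counter is not given in the sources used here. Genes passing edgeR's filterByExpr entered 1 quasi-likelihood fit for each experiment after TMM scaling (edgeR 4.0.16 in R 4.3.3). Benjamini-Hochberg adjusted p-values cover every gene in the fit, and a call is one under 0.05. The difference between the experiments is a contrast in 1 fit of the 12 libraries. Levels per length use the union of exons in GENCODE 29. The 10 genes and the lists were chosen with earlier results of these data known. Of the other pathway genes, the text names per list and experiment up to 2 called genes, those of smallest p with a mean of at least 1 CPM. Where no gene was both called and at a mean of at least 1 CPM, the 2 most abundant are named. For each of the 10 with a log2 change of at least 1, the 2 genes of nearest pattern are named too. A gene that this rule names is not reported here. Replicates differed by more than sampling noise (chi-square per degree of freedom of 1.54 to 12.2). The labels do not say whether they are separate cultures, and the p-values reflect the spread among these libraries alone. The scripts were tested on simulated data. Alternatives were other scalings, DESeq2 1.42.0, other filters, 1 joint fit of both experiments, blocking on replicate number, and leaving out each library.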

Additional observations from a re-analysis of the deposited data

How the results depend on the processing

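Leaving out each library in turn, other scalings, other filters, DESeq2 and a fit of all 12 libraries moved every count of the other pathway genes by less than 1.5 times, except that 26 rather than 15 of them were called higher in resistant cells with library sizes alone. All 9 tested genes of the main set kept their direction in both experiments under each alternative, save HES1 in the resistance experiment, at -0.07 with TMM and 0.09 with library sizes alone. Of 23 pairs of a named pathway gene and an experiment, 21 kept call and direction in every alternative, and DLL3 and DLK2 did not. The replicate numbers of the overexpression experiment share only a number: same-numbered libraries deviated from their group means with correlations of -0.21, -0.20 and 0.03 over 6122 genes, and none of the 3 plasmid libraries correlated best with its own number. With the replicate block 29 pathway genes were higher, 20 lower and 8 of the 9 tested genes of the main set were called. All 9 were called in 5 of 13 alternatives for overexpression and in 1 of 12 for resistance, where NOTCH2 and HES1, respectively, joined. No paired analysis was possible for the resistance experiment because the numbers in its parental column headers (NC1 to NC3) tie to no parental sample. Depth limits DLL1, DLL3 and HEY1 in parental cells.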

Other observations

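The next 3 genes of the pathway lists lay in the same direction as HEY1 in both experiments and were singled out after their values were seen. They are 3 of the 9 list genes, of 60 tested in both, that fell in plasmid and rose in resistant cells. Of all 15655 genes tested in both, 13.4% did so, and nothing is read from the number of such genes. HES2, a relative of HES1, fell from 13.2 ± 0.110 to 3.50 ± 0.767 CPM in plasmid cells (edgeR adjusted p = 5.06e-11, n = 3) and rose from 0.551 ± 0.268 to 2.89 ± 0.208 CPM in resistant cells (adjusted p = 4.31e-06). NEURL1B, a Neuralized-type ubiquitin ligase that acts on Notch ligands, fell from 22.4 ± 0.488 to 8.37 ± 1.06 CPM in plasmid cells (adjusted p = 1.97e-11) and rose from 2.19 ± 0.314 to 6.94 ± 0.951 CPM in resistant cells (adjusted p = 2.3e-07). SOX9, a transcription factor of epithelial progenitors, fell from 30.4 ± 0.718 to 8.75 ± 0.629 CPM in plasmid cells (adjusted p = 5.53e-14) and rose from 18.2 ± 2.08 to 26.5 ± 1.81 CPM in resistant cells (adjusted p = 6.29e-05). HES4 and HEYL, which belong to the same repressor families, did not share this pattern: HES4 rose in both experiments (log2 0.84 ± 0.095 and 0.38 ± 0.092), and HEYL had a log2 fold change of 0.05 ± 0.19 in plasmid cells (adjusted p = 0.85) and rose by 0.94 ± 0.34 in resistant cells (adjusted p = 0.0246). HEY2 had too few counts to be tested in plasmid cells and was not called in resistant cells (log2 -0.41 ± 0.47, edgeR adjusted p = 0.483).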
